A study of Homo sapiens with 15 samples.

Results

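The comparison is between 4-hydroxytamoxifen-resistant T47D cells (TR) given 1 µM 4-hydroxytamoxifen (4-OHT) again and the same cells given vehicle, which had been withdrawn from the drug. It used 6 of the 15 RNA sequencing libraries of the study: TR 4-OHT (n = 3) and TR vehicle (n = 3, 0.05% DMSO). No DMSO level is listed for TR 4-OHT. T47D is an established luminal breast cancer line that carries the oestrogen receptor. TR cells (TR01) were kept in RPMI 1640 with 2% charcoal-stripped serum, insulin and 1 µM 4-OHT. For the experiment, all cells were seeded for 24 h in their own growth medium and starved for 48 h in phenol red-free medium with 2% charcoal-stripped serum and insulin. Treatment then lasted 120 h. The starvation medium lists no 4-OHT, and neither arm lists added oestradiol, so the drug was set against a medium poor in oestrogen and not against oestrogen. TR erdafitinib (n = 3, 5 µM of this FGFR inhibitor) and TR combination (n = 3, 5 µM erdafitinib with 1 µM 4-OHT) gave a further pair of groups that differ in 4-OHT. Parental T47D cells on vehicle (PAR vehicle, n = 3), which are sensitive to 4-OHT and were kept in 5% serum without it, gave the scale of the resistant state. The labels name 1 resistant line and do not say how many clones it holds or how the 3 replicates of a group were made, so each p-value reflects the spread of these libraries alone, and that spread may be technical.

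Tamoxifen is turned into 4-OHT in the liver, and 4-OHT occupies the ligand pocket of the oestrogen receptor and blocks its activation of genes such as PGR and GREB1 in breast cells. The receptor drives cyclin D1 and entry into S phase, so loss of both target genes and cell cycle genes marks a responsive cell. Apart from the receptor, tamoxifen and 4-OHT bind the microsomal antioestrogen binding site, which is formed by the sterol enzymes EBP and DHCR7, and as amphiphilic amines they collect in lysosomes. Sterol enzymes are controlled by the SREBP factors and lysosomal genes by TFEB and its relatives, so both systems are common readouts of exposure to such drugs. The question addressed was which of these responses 4-OHT still gave in resistant cells, and how large a response the data could have missed.

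Of 19 lysosomal and 33 S phase members with a promoter entry, 5 (26.3%) and 12 (36.4%) held the element of their usual regulator, and and of these holders the one with the narrowest interval in each list is shown, as an example of the element in its place. They come from the RefSeq promoter table (GRCh38.p14), which runs from 250 bases before to 50 after each gene's start. LAMP1, a heavily glycosylated protein of the lysosomal membrane, has its window at chr13:113296989-113297288 on the plus strand, with the 2 CLEAR elements (TCACGTGA, bound by TFEB) in capitals. GINS1, a subunit of the replicative helicase, has its window at chr20:25407423-25407722 on the plus strand, with 1 E2F element (TTTNGCGC, here on the opposite strand) in capitals.
LAMP1: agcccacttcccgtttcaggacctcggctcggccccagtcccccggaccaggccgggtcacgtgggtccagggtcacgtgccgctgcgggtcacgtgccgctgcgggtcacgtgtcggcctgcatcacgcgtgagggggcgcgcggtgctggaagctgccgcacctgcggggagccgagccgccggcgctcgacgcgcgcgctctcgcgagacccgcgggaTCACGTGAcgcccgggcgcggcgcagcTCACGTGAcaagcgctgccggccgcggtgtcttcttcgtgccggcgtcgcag
GINS1: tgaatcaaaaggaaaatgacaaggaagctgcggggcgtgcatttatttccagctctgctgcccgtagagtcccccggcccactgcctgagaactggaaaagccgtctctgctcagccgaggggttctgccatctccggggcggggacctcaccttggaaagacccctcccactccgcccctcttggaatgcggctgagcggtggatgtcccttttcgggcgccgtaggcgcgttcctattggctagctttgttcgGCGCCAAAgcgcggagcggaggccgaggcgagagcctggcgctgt
Across all 27305 promoters of the table, 1.04% held TCACGTGA and 1.83% held TTTNGCGC on either strand. The oestrogen response element (half-sites GGTCA and TGACC, 3 bases apart) was in 0.0659% of all promoters and in 0 of 28 oestrogen-induced members with an entry, and the sterol element TCACNCCAC was in 1.15% and in 0 of 17 sterol synthesis members. A match describes letters in this window only.

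Gene counts summed to 28147510, 8990899 and 21360714 in TR 4-OHT libraries 1, 2 and 3, against 21025659, 25696651 and 27229667 in TR vehicle libraries, and 3 counts equalled 0.103 to 0.351 CPM, the count scaled by effective library size. Mitochondrial genes held 17.8 to 24.2% of counts in TR 4-OHT and 15.6 to 22.6% in TR vehicle. The chi-square per gene lay between 22.2 and 39.6 for pairs of TR 4-OHT libraries. TR vehicle 1 stood apart from its group, with 148 and 146 against the other two, which differed from each other by 14.4. On the first axis of variation within groups, TR 4-OHT libraries 1 to 3 lay at 0.25, -0.27 and 0.02, and TR vehicle libraries at -0.43, 0.21 and 0.21. That axis held 49.5% of all variance within groups. The 9 luminal markers summed to 2979 to 4002 CPM in TR 4-OHT and 2384 to 4342 CPM in TR vehicle. The 13 markers of immune, endothelial, stromal and fat cells summed to 19.2 to 32.4 CPM and 12.7 to 35.6 CPM in the same order, mostly COL1A1, with 6 and 4 of them at 0 counts in every library.

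No gene of 16210 tested differed between TR 4-OHT and TR vehicle at an adjusted p under 0.05 (0%; edgeR quasi-likelihood F test, Benjamini-Hochberg). At an unadjusted p under 0.05 there were 127 genes (0.783%), 91 higher (0.561%) and 36 lower (0.222%) in TR 4-OHT. Evenly spread p-values would put a share of 0.05 of all genes there, so the test gave fewer small p-values than that. The intervals below come from the same test, and the reason was not tested. DESeq2 likewise called 0, with 153 at an unadjusted p under 0.05. Libraries of both groups did not overlap for 591 genes (3.65%), of which 276 were higher (1.7%) and 315 lower (1.94%). The count at an unadjusted p under 0.05 was 33 without TR 4-OHT 2, 342 without TR 4-OHT 1 and 333 without TR 4-OHT 3.

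How much a null result says depends on the width of each gene's interval. For each gene, the 95% interval holds every fold change that the same test would not reject, and effects outside it are called excluded here. Unless a refit is named, limits come from the fit of all 15 libraries. Leaving out 1 library widened some of them. The whole interval lay within 2-fold in either direction for 9367 genes (57.8%), within 1.5-fold for 26.6% and within 4-fold for 87.9%. Among the 10916 genes averaging at least 2 on the log2 CPM scale, these shares were 80.7%, 39.4% and 97.8%. With intervals widened to hold for all 16210 genes at once, 35.2% still lay within 4-fold and 0.95% within 2-fold.

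Members of the oestrogen, cell cycle, sterol synthesis and lysosome lists numbered 165, of which 163 were tested and 0 were called. Their intervals lay within 2-fold for 126 (77.3%), within 1.5-fold for 75 and within 4-fold for 155. With intervals widened to hold for all 16210 genes at once, 2 of the 163 lay within 2-fold and 89 within 4-fold, so the limits given gene by gene hold for each gene on its own and not for all together. Of the 163, 2 had an unadjusted p under 0.05 (1.23%, against 0.783% of all genes), CALCR and GPNMB, both with higher values in TR 4-OHT. Libraries did not overlap for 4 members (2.45%, against 3.65% of all genes), all higher in TR 4-OHT. The median log2 fold change of the 163 was -0.05, as it was over all tested genes.

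**Figure D1:**
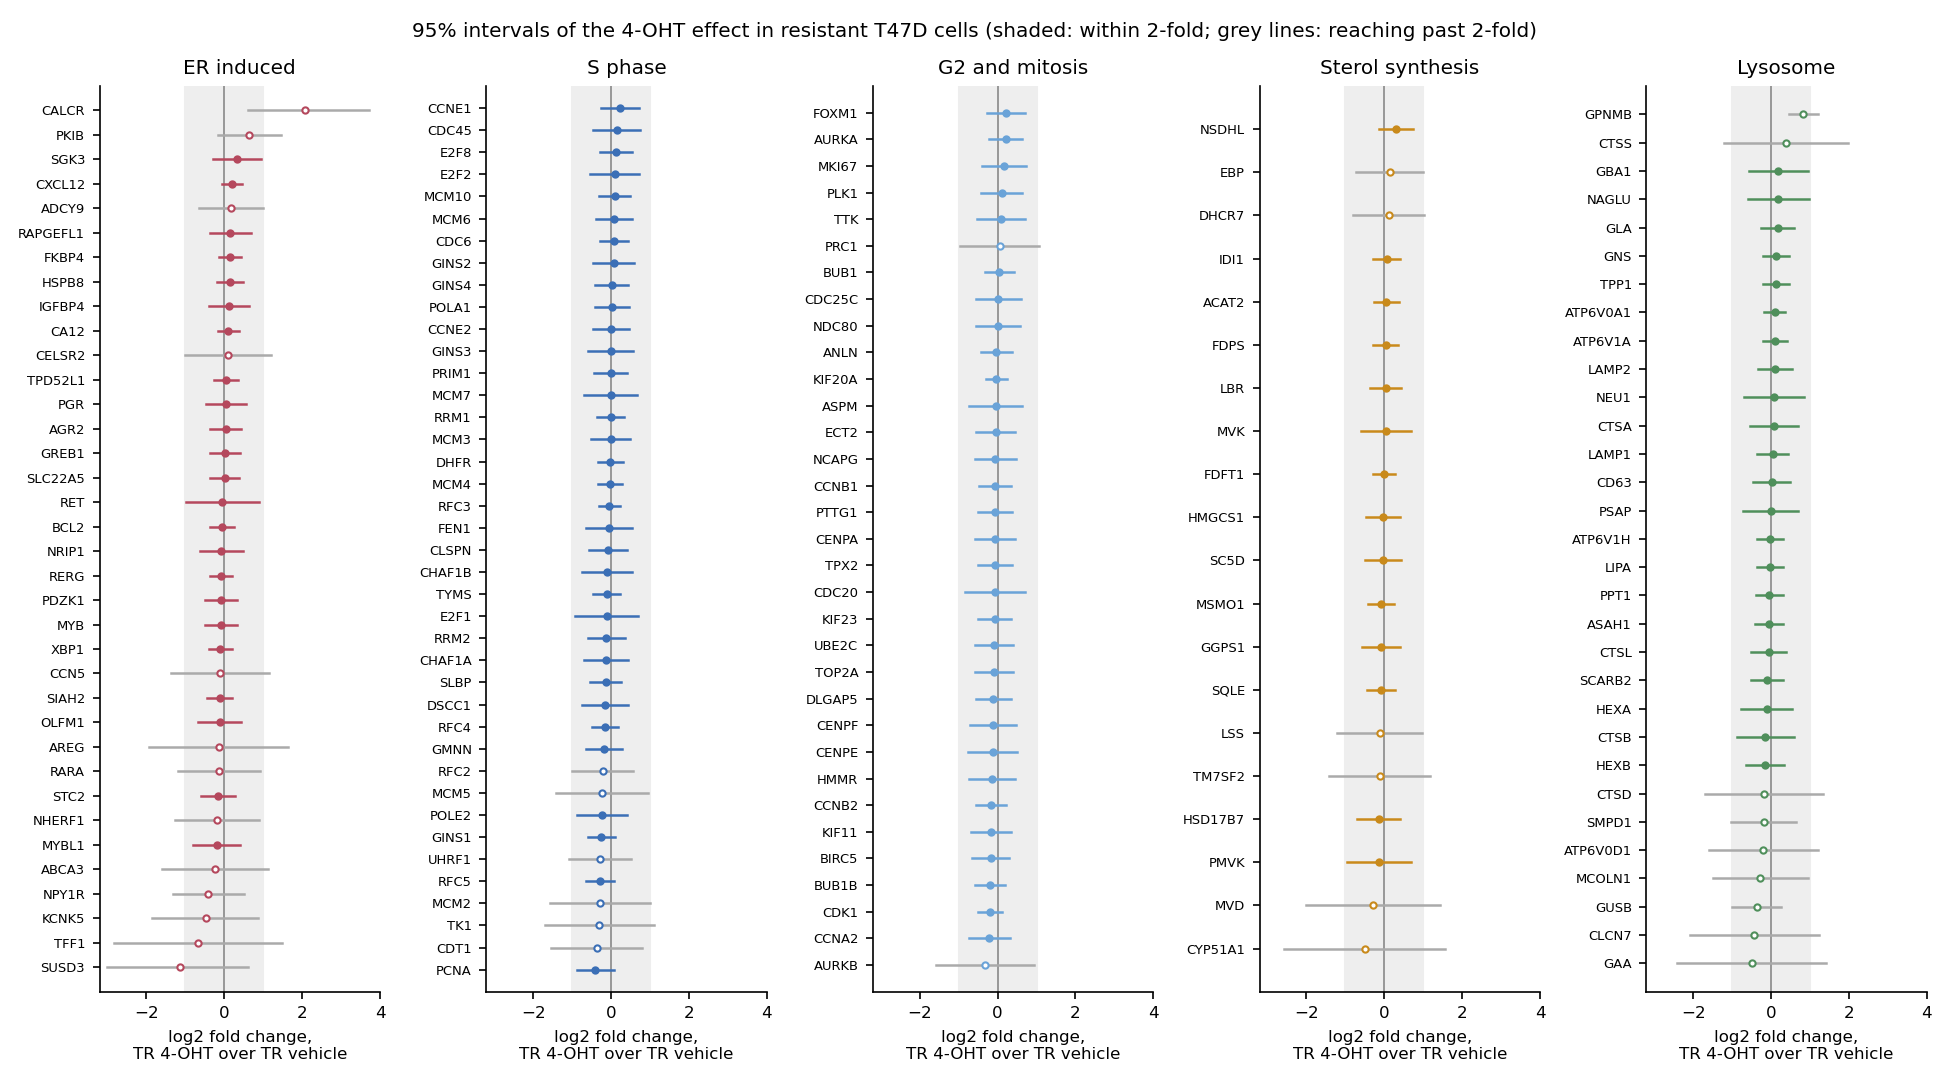
Log2 fold change of TR 4-OHT over TR vehicle (horizontal axis) for the tested members of 5 gene lists, each line a 95% interval and each point the estimate; EGR3, with 0 counts in all 6 libraries, is among the few not drawn. Filled points and coloured lines mark the members whose interval stays within 2-fold (shaded); over all tested members these are 23 of 37 oestrogen-induced, 34 of 40 S phase, 31 of 33 G2 and mitosis, 16 of 22 sterol synthesis and 22 of 31 lysosomal genes; CALCR and GPNMB alone have intervals clear of 0.

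Genes induced by oestrogen showed no called change on 4-OHT. Gene by gene, 15 of the 37 tested had intervals within 1.5-fold (40.5%, against 26.6% of all genes). With intervals widened to hold for all 16210 genes at once, 0 of the 37 lay within 2-fold and 17 within 4-fold. PGR (chr11:101029624-101129813, minus strand), the progesterone receptor, had 144, 176 and 166 CPM in TR 4-OHT, against 214, 124 and 134 CPM in TR vehicle. The groups overlapped, with the highest and the lowest values both on vehicle. The log2 fold change was 0.04 (95% interval -0.47 to 0.55), which excludes a rise of more than 1.46-fold and a fall of more than 1.38-fold. Without TR vehicle 1 it was 0.32 (-0.15 to 0.79). GREB1 (chr2:11482341-11642788, plus strand), a cofactor of the receptor, had 12.1, 16.6 and 11.3 CPM in TR 4-OHT, against 11.5, 14.0 and 13.8 CPM in TR vehicle. Its log2 fold change of 0.02 (-0.37 to 0.40) excludes a rise over 1.32-fold and a fall over 1.29-fold. In PAR vehicle cells PGR stood at 3863 ± 987 CPM and GREB1 at 486 ± 36.3 CPM (SD, n = 3), and PGR was lower in TR vehicle than in PAR vehicle by a log2 fold change of -4.62 (adjusted p = 1.74e-08).

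The tightest oestrogen-induced member was CXCL12 (chr10:44370165-44386493, minus strand), a chemokine, with 189, 231 and 208 CPM in TR 4-OHT, against 184, 180 and 183 CPM in TR vehicle. All 3 TR 4-OHT libraries lay above all 3 TR vehicle libraries. Its log2 fold change was 0.20 (-0.06 to 0.45, unadjusted p = 0.12, adjusted p = 1), so a rise over 1.37-fold and a fall over 1.04-fold are excluded. Over both 4-OHT contrasts together (6 libraries against 6) it was 0.22 (0.04 to 0.40, unadjusted p = 0.0227, adjusted p = 1). CA12, a carbonic anhydrase, also had libraries that did not overlap, though the closest were equal to 3 digits, at 497, 558 and 506 CPM in TR 4-OHT, against 497, 460 and 492 CPM in TR vehicle, and a rise over 1.3-fold is excluded.

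Falls are what an antioestrogen gives in a responsive cell where oestrogen is present. They were excluded beyond 2-fold for 26 of the 37 tested oestrogen-induced genes and beyond 1.5-fold for 20. Over all 16210 tested genes these counts were 10852 and 6710. Among the 10916 genes averaging at least 2 on the log2 CPM scale they were 9168 and 6137. Neither arm lists added oestradiol, and no parental group was given 4-OHT. The fall that a responsive cell would show in this medium is therefore not known from these data. Rises beyond 2-fold were excluded for 28 of the 37 and beyond 1.5-fold for 20, against 11874 and 7204 of all 16210 genes. The largest fall that remained possible was 1.31-fold for XBP1, a factor of the secretory pathway, 1.41-fold for PDZK1, a scaffold protein, 1.35-fold for the ubiquitin ligase SIAH2 and 1.31-fold for IGFBP4, which binds insulin-like growth factors. For BCL2, which protects from apoptosis, it was 1.3-fold, and for RET, a receptor kinase with 6.37 to 8.12 CPM in TR 4-OHT and 6.19 to 8.69 CPM in TR vehicle, it was 1.99-fold. The median log2 fold change of the list was -0.07.

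Several classical targets gave no useful bound. TFF1 (chr21:42362282-42366535, minus strand), a secreted trefoil peptide, had 4.54, 1.29 and 1.95 CPM in TR 4-OHT, against 0.464, 7.22 and 5.03 CPM in TR vehicle. Its lowest and highest values were both on vehicle, and its interval of -2.83 to 1.48 excludes only a fall over 7.09-fold and a rise over 2.79-fold. Without TR 4-OHT 2 these limits were 6.76-fold down and 4.67-fold up, and without TR vehicle 1 they were 9.9-fold down and 1.71-fold up. EGR3, an immediate-early factor, had 0 counts in all 6 libraries, against 5.71 ± 1.87 CPM in PAR vehicle, so no fold change between TR 4-OHT and TR vehicle could be given. AREG, an EGF receptor ligand, and KCNK5, a potassium channel, reached at most 0.516 and 0.513 CPM in the 6 libraries. ELOVL2, a fatty acid elongase, did not pass the filter on low counts.

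CALCR (chr7:93424486-93574730, minus strand), the calcitonin receptor, was the member with the smallest p of the oestrogen list and rested on few reads. It had 5, 9 and 8 counts in TR 4-OHT, against 1, 2 and 5 counts in TR vehicle. The log2 fold change was 2.06 (0.61 to 3.72, unadjusted p = 0.00916, adjusted p = 1), with 9 of the 22 TR 4-OHT counts in the shallowest library. It was 1.30 without TR 4-OHT 2. In the contrast of TR combination with TR erdafitinib it was -0.18, and the test of the difference between both contrasts gave an unadjusted p of 0.0323 (adjusted p = 1).

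Genes that oestrogen represses, and the receptor's own machinery, showed no called change either. Of 8 repressed genes tested, 6 lay within 2-fold: CCNG2, an atypical cyclin, could have risen by at most 1.25-fold, and the receptor kinase gene ERBB2, one of the other two, by at most 1.67-fold or fallen by at most 2.19-fold. BTG2, an antiproliferative gene, had the narrowest interval (a rise up to 1.38-fold), and BIK, a pro-apoptotic gene, the widest (up to 2.43-fold). ESR1 (chr6:151656691-152129619, plus strand), the oestrogen receptor itself, had 215, 239 and 222 CPM in TR 4-OHT, against 251, 190 and 195 CPM in TR vehicle. These values overlapped, and a rise over 1.34-fold and a fall over 1.18-fold are excluded. For the pioneer factor FOXA1 the bounds were 1.21-fold up and 1.26-fold down, for GATA3 1.09-fold up and 1.46-fold down, and for the coactivator NCOA3 1.49-fold up and 1.33-fold down. CREBBP, a coactivator, had the smallest p of these 13 genes (unadjusted p = 0.0935), ESRRA the widest interval, and 11 of the 13 lay within 2-fold; ESR2 and GPER1 did not pass the filter on low counts.

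**Figure D2:**
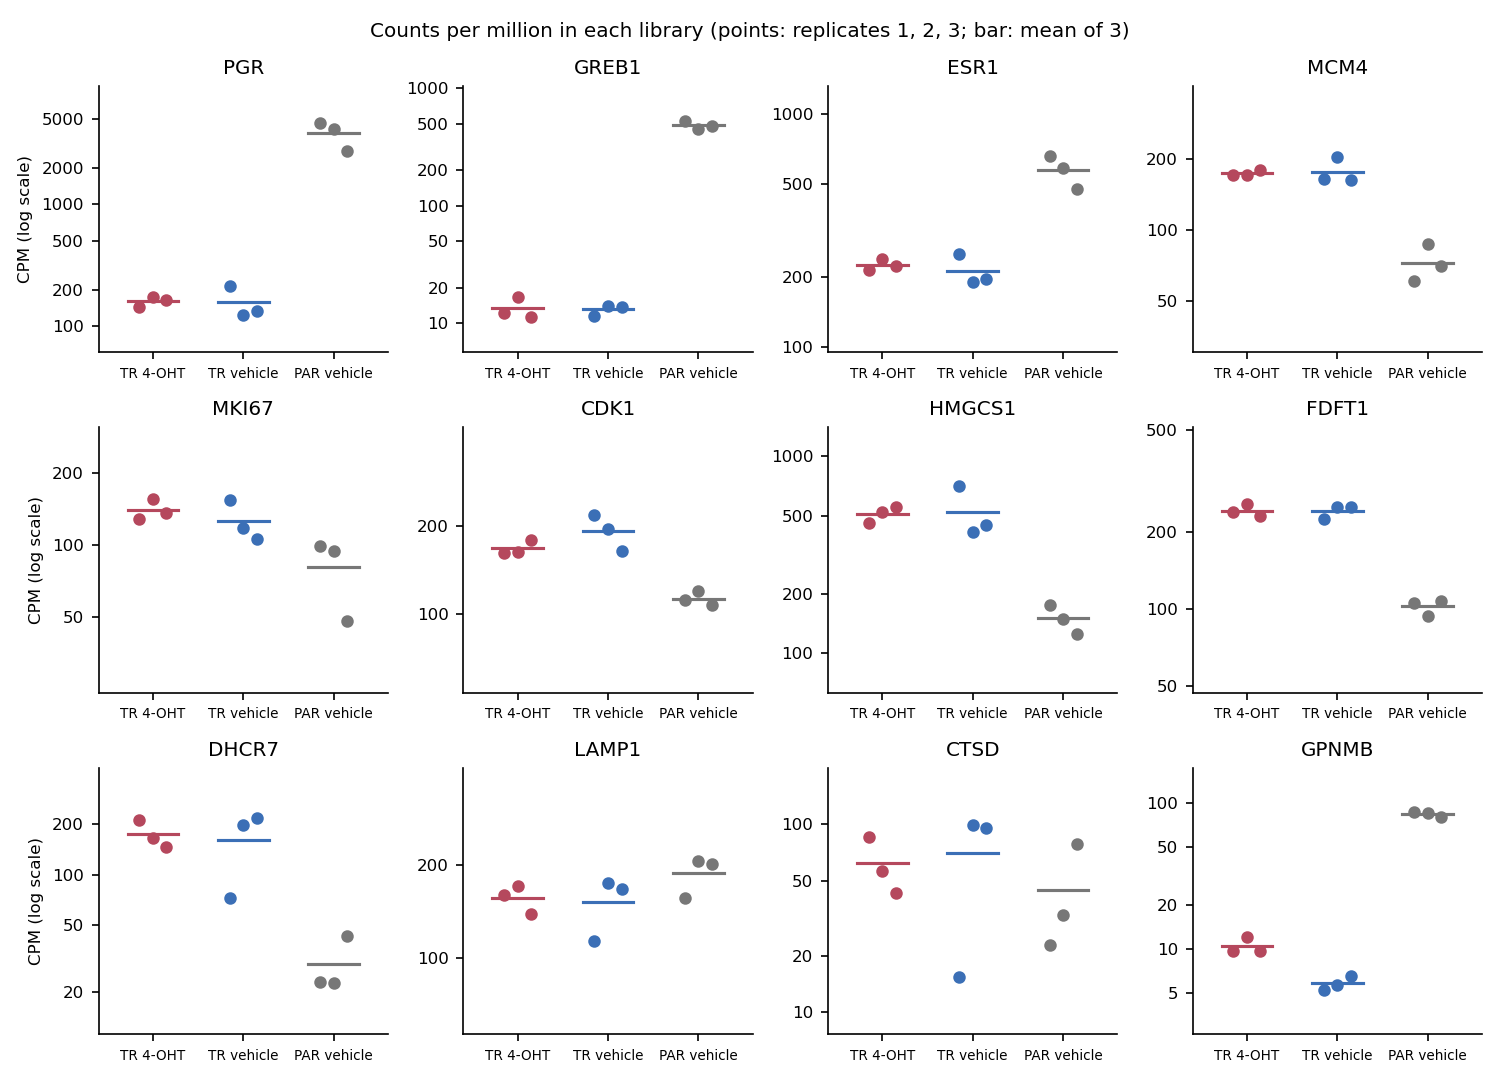
CPM on a log scale (vertical axis) in each of 3 libraries of TR 4-OHT, TR vehicle and PAR vehicle, for 12 members, with the mean as a bar. TR 4-OHT and TR vehicle points overlap for each gene except GPNMB, whose 3 TR 4-OHT points lie above the 3 TR vehicle points; one TR vehicle library is low for DHCR7, LAMP1 and CTSD.

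S phase genes showed no called change. All 40 were tested, and gene by gene 34 (85%) lay within 2-fold, 19 within 1.5-fold and 40 within 4-fold. With intervals widened to hold for all 16210 genes at once, 0 lay within 2-fold and 23 within 4-fold. MCM4 (chr8:47960185-47978160, plus strand), a helicase subunit, had 171, 171 and 181 CPM in TR 4-OHT, against 165, 204 and 163 CPM in TR vehicle, which overlap. Its log2 fold change of -0.02 (-0.33 to 0.29) excludes a rise over 1.22-fold and a fall over 1.26-fold. The narrowest interval belonged to RFC3, a clamp loader subunit, at -0.04 (-0.32 to 0.23), which excludes a fall over 1.25-fold. GINS1, whose promoter is shown above, had 37.6, 29.7 and 40.7 CPM in TR 4-OHT, against 43.2, 47.3 and 37.5 CPM in TR vehicle, and a fall over 1.5-fold is excluded.

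PCNA (chr20:5114953-5126626, minus strand), the sliding clamp of DNA replication, had the smallest p of the list. It had 67.7, 49.1 and 74.9 CPM in TR 4-OHT, against 97.5, 90.4 and 65.3 CPM in TR vehicle, so 1 vehicle library lay below 2 of the 4-OHT libraries. The log2 fold change was -0.40 (-0.87 to 0.07, unadjusted p = 0.089, adjusted p = 1), and a fall up to 1.82-fold remained possible. In TR combination over TR erdafitinib it was 0.12. Falls remained possible up to 1.37-fold for TYMS, thymidylate synthase, and 1.51-fold for RRM2, the small subunit of ribonucleotide reductase. For CCNE1, cyclin E1, the limit was 1.19-fold, and for the factor E2F1 it was 1.89-fold (2.27-fold without TR vehicle 1). The 6 members whose interval reached past 2-fold were MCM2, MCM5, CDT1, TK1, UHRF1 and RFC2. TK1, thymidine kinase 1, was the widest, with a fall up to 3.23-fold and a rise up to 2.13-fold. Without TR vehicle 1 these limits were 4.13-fold and 1.39-fold, and without TR 4-OHT 2 they were 3.07-fold and 3.03-fold. In all 6 the lowest of the 3 vehicle libraries was TR vehicle 1, as in MCM5 with 33.4, 18.9 and 24.4 CPM in TR 4-OHT, against 10.6, 41.9 and 37.7 CPM in TR vehicle.

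Genes of G2 and mitosis had the highest share of members within 2-fold among the 5 lists, 31 of 33 tested (93.9%), with 16 within 1.5-fold. MKI67 (chr10:128096659-128126423, minus strand), which encodes the proliferation marker Ki-67, had 129, 157 and 136 CPM in TR 4-OHT, against 154, 118 and 106 CPM in TR vehicle. The groups overlapped, and its log2 fold change of 0.16 (-0.41 to 0.72) excludes a rise over 1.64-fold and a fall over 1.32-fold. CDK1 (chr10:60778331-60794852, plus strand), the mitotic kinase, had 162, 163 and 179 CPM in TR 4-OHT, against 219, 195 and 164 CPM in TR vehicle. It had the smallest p of the list (unadjusted p = 0.186, adjusted p = 1), and a fall over 1.42-fold is excluded. Falls remained possible up to 1.51-fold for TOP2A, topoisomerase II alpha, 1.39-fold for cyclin B1 (CCNB1), 1.34-fold for the kinase PLK1 and 1.2-fold for the factor FOXM1. KIF20A, a mitotic kinesin, had the narrowest interval (up to 1.23-fold down) and AURKB, a kinase of chromosome segregation, the widest (up to 2.98-fold down). The list's median log2 fold change was -0.07. PRC1 was the other member past 2-fold; NUSAP1 did not pass the filter, and 57.6% and 81.4% of the exon bases of these genes are shared with another gene on the same strand, from which reads could not be assigned.

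Regulators of G1 had 0 called genes as well, with 15 of 17 tested within 2-fold. CCND1, cyclin D1 and a target of the receptor, had 347, 465 and 352 CPM in TR 4-OHT, against 373, 311 and 351 CPM in TR vehicle, and a fall over 1.13-fold and a rise over 1.43-fold are excluded. MYC could have fallen by at most 1.75-fold, CDK4 by 1.44-fold, CDK6 by 1.95-fold and RB1 by 1.44-fold. Without TR vehicle 1 this limit was 2.09-fold for MYC and 1.68-fold for CDK4. Without TR 4-OHT 2 it was 2.25-fold for CDK6 and 1.6-fold for RB1. Among inhibitors of the cycle, CDKN1A (p21) could have risen by at most 1.67-fold and CDKN1B (p27) by at most 1.15-fold. CDKN2D had the widest interval and the smallest p (unadjusted p = 0.164) at 1.07 CPM in TR 4-OHT and 2.08 CPM in TR vehicle. In bulk RNA, fewer cycling cells and less RNA per cycling cell cannot be told apart.

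Sterol synthesis genes showed no called change, the 2 enzymes of the binding site included. HMGCS1 (chr5:43287470-43313512, minus strand), which makes HMG-CoA, had 456, 520 and 555 CPM in TR 4-OHT, against 703, 410 and 447 CPM in TR vehicle. The vehicle libraries spanned the 4-OHT ones, and the log2 fold change of -0.03 (-0.46 to 0.41) excludes a rise over 1.33-fold and a fall over 1.38-fold. FDFT1 (chr8:11795573-11839304, plus strand), squalene synthase, had the narrowest interval, with 238, 256 and 229 CPM in TR 4-OHT, against 224, 249 and 249 CPM in TR vehicle. Its changes beyond 1.22-fold are excluded in either direction. Rises, the direction of a cell short of sterol, were excluded beyond 1.2-fold for SQLE, squalene epoxidase, and 1.33-fold for IDI1, isopentenyl diphosphate isomerase.

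Binding-site enzymes were measured less well. EBP, which shifts a double bond of the sterol ring, had 12.5, 12.7 and 10.2 CPM in TR 4-OHT, against 4.69, 14.9 and 12.6 CPM in TR vehicle, and a rise up to 2.01-fold remained possible. Of the exon bases of EBP, 36.4% are shared with another gene on the same strand. DHCR7, which makes cholesterol from its last precursor, had 214, 166 and 147 CPM in TR 4-OHT, against 72.4, 198 and 217 CPM in TR vehicle. TR vehicle 1 was lowest for both, and for DHCR7 rises over 2.04-fold and falls over 1.75-fold are excluded. Over the list 16 of 22 lay within 2-fold (72.7%) and 12 within 1.5-fold. CYP51A1 had the widest interval (-2.58 to 1.57), which allows a rise up to 2.97-fold, with 0.722 to 4.69 CPM over the 6 libraries. Its limits were 5.58-fold down and 4.71-fold up without TR 4-OHT 2. Without TR vehicle 1 they were 8.84-fold down and 2.11-fold up. Of its exon bases, 80.6% are shared with another gene on the same strand. NSDHL had the smallest p (unadjusted p = 0.169, adjusted p = 1).

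The sterol control and transport genes gave 12 of 17 within 2-fold. INSIG1, which holds SREBP in the endoplasmic reticulum when sterol is plentiful, had 106, 98.3 and 107 CPM in TR 4-OHT, against 118, 115 and 113 CPM in TR vehicle. Its libraries did not overlap, but the log2 fold change was -0.15 (-0.44 to 0.13, unadjusted p = 0.268, adjusted p = 1), and it was 0.27 in TR combination over TR erdafitinib. SREBF2 could have risen by at most 1.5-fold and the sterol exporter ABCA1 by at most 2.14-fold. Of 8 fatty acid genes 6 lay within 2-fold, with SCD, stearoyl-CoA desaturase, limited to a rise of 1.31-fold. FASN, fatty acid synthase, was among those that did not: it had 322, 82.1 and 116 CPM in TR 4-OHT, against 36.5, 308 and 413 CPM in TR vehicle, and a fall up to 5.77-fold and a rise up to 2.74-fold remained possible. Without TR 4-OHT 2 these limits were 5.26-fold down and 4.67-fold up, and without TR vehicle 1 they were 8.07-fold down and 1.69-fold up.

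Lysosomal genes had 0 called and a median log2 fold change of -0.02, against -0.05 over all genes. Of 31 tested, 22 (71%) lay within 2-fold, 13 within 1.5-fold and 29 within 4-fold. LAMP1 (chr13:113297239-113323672, plus strand), with the CLEAR elements shown above, had 160, 171 and 139 CPM in TR 4-OHT, against 113, 175 and 167 CPM in TR vehicle, which overlap. The log2 fold change of 0.04 (-0.36 to 0.44) excludes a rise over 1.36-fold. Rises remained possible up to 1.52-fold for the protease CTSB, 1.62-fold for PSAP, the precursor of the saposins, 1.46-fold for HEXA, a subunit of hexosaminidase, and 1.29-fold for ATP6V0A1, a proton pump subunit with the narrowest interval.

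CTSD (chr11:1752752-1764573, minus strand), an aspartic protease and also a gene induced by oestrogen, had 86.1, 56.5 and 43.2 CPM in TR 4-OHT, against 15.3, 99.7 and 95.01 CPM in TR vehicle. Its interval of -1.68 to 1.33 excludes only a rise over 2.51-fold and a fall over 3.21-fold. Of the exon bases of CTSD, 27.3% are shared with another gene on the same strand. GAA (chr17:80101556-80119881, plus strand), acid alpha-glucosidase, was the widest of the list, with 53.0, 17.9 and 22.4 CPM in TR 4-OHT, against 8.31, 59.5 and 63.8 CPM in TR vehicle. In both genes TR vehicle 1 held the lowest value of the 6 libraries. Without it the rise allowed was 1.6-fold for CTSD and 1.76-fold for GAA (2.69-fold with all libraries), and the fall 4.17-fold and 7.61-fold. Without TR 4-OHT 2 the rise allowed was 3.37-fold for CTSD and 4.4-fold for GAA, and the fall 3.58-fold and 5.14-fold. The controllers of lysosomes and autophagy gave 11 of 14 within 2-fold. TFEB itself was low, at 4.37, 1.05 and 3.30 CPM in TR 4-OHT and 1.03, 3.11 and 4.79 CPM in TR vehicle, and changes up to 3.05-fold upwards remained possible. RRAGD, a GTPase that TFEB induces, could have risen by at most 1.46-fold and SQSTM1, an autophagy receptor, by at most 1.88-fold. Without TR 4-OHT 2 these limits were 1.58-fold and 2.47-fold, and without TR vehicle 1 they were 1.67-fold and 1.39-fold. WIPI1, an autophagy protein, did not overlap, with a log2 fold change of 0.23 (-0.07 to 0.52, unadjusted p = 0.126, adjusted p = 1).

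GPNMB (chr7:23235967-23275108, plus strand), a transmembrane glycoprotein of melanosomes and lysosomes that MITF and TFE3 are known to induce, was the 1 lysosomal gene whose libraries did not overlap. It had 9.70, 12.04 and 9.76 CPM in TR 4-OHT, against 5.26, 5.72 and 6.57 CPM in TR vehicle. All 3 TR 4-OHT libraries lay above all 3 TR vehicle libraries. The log2 fold change was 0.83 (0.46 to 1.21, unadjusted p = 0.000272), and the adjusted p over 16210 genes was 1, so it was not called. It also had the smallest p among protein-coding genes that averaged at least 2 on the log2 CPM scale.

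The libraries with erdafitinib share none with that contrast. There GPNMB had 38.0, 33.9 and 50.3 CPM in TR combination, against 25.9, 27.1 and 29.2 CPM in TR erdafitinib, and again the groups did not overlap. The log2 fold change was 0.57 (0.22 to 0.93, unadjusted p = 0.004, adjusted p = 1), and the test of the difference between both contrasts gave an unadjusted p of 0.293. The mean of both contrasts was 0.70 (0.45 to 0.96), and 0 genes were called on the mean effect. This mean, like the refits without a library given below, reuses the contrast in which GPNMB had the smallest p. Only the pair with erdafitinib is separate from that ranking. In PAR vehicle GPNMB stood at 84.1 ± 3.44 CPM (SD, n = 3), above all 12 TR libraries. The slope of GPNMB on the within-group axis was 0.05. Without TR vehicle 1 its log2 fold change was 0.76 (0.36 to 1.16), and without TR 4-OHT 2 it was 0.73 (0.34 to 1.13).

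Over all genes the contrast of TR combination with TR erdafitinib also gave 0 called (0%), with 104 (0.642%) at an unadjusted p under 0.05. Between both 4-OHT contrasts, log2 fold changes had a Pearson correlation of -0.06 and a Spearman correlation of -0.11 across 16210 genes, which are not independent, and 45.0% had the same sign. Of the 127 genes with an unadjusted p under 0.05 in the first contrast, 55 (43.3%) had the same sign in the second. The mean effect of 4-OHT over both gave 0 called, with 93 (0.574%) at an unadjusted p under 0.05, and the difference between both gave 0 called, with 134 (0.827%).

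With 6 libraries on each side the bounds on the mean effect were narrower: 74.6% of genes lay within 2-fold and 50.5% within 1.5-fold. Within 2-fold were 29 of 37 oestrogen-induced, 37 of 40 S phase, 31 of 33 G2 and mitosis, 20 of 22 sterol synthesis and 26 of 31 lysosomal genes. On that scale PGR could have fallen by at most 1.27-fold, GREB1 by 1.15-fold, MKI67 by 1.26-fold, HMGCS1 by 1.2-fold and LAMP1 by 1.13-fold. EBP and DHCR7 could have risen by at most 1.67-fold each. These bounds describe a mean over cells with and without erdafitinib. In TR combination over TR erdafitinib, 20 of 22 sterol synthesis and 25 of 31 lysosomal genes had positive log2 fold changes, with medians of 0.12 and 0.12, against 8080 of 16210 and a median of 0.00 over all genes, and 0 of them were called. The mean log2 CPM of the libraries overlapped for both lists: it was 6.07, 6.42 and 6.62 in TR combination against 6.42, 6.18 and 6.18 in TR erdafitinib for sterol synthesis, and 5.85, 6.08 and 6.37 against 6.19, 5.91 and 5.86 for lysosome. TR combination libraries lay at -0.21, -0.04 and 0.26 on the within-group axis and TR erdafitinib libraries at 0.23, -0.06 and -0.17, and the part of this axis in these counts was not tested. In TR 4-OHT over TR vehicle the same counts were 10 of 22 and 14 of 31, against 6694 of 16210 over all genes. Of S phase and G2 and mitosis genes, 11 of 40 and 2 of 33 had positive log2 fold changes in TR combination over TR erdafitinib, with medians of -0.07 and -0.09, and 0 were called, and the library means again overlapped. In TR 4-OHT over TR vehicle these counts were 10 of 40 and 9 of 33.

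**Figure D3:**
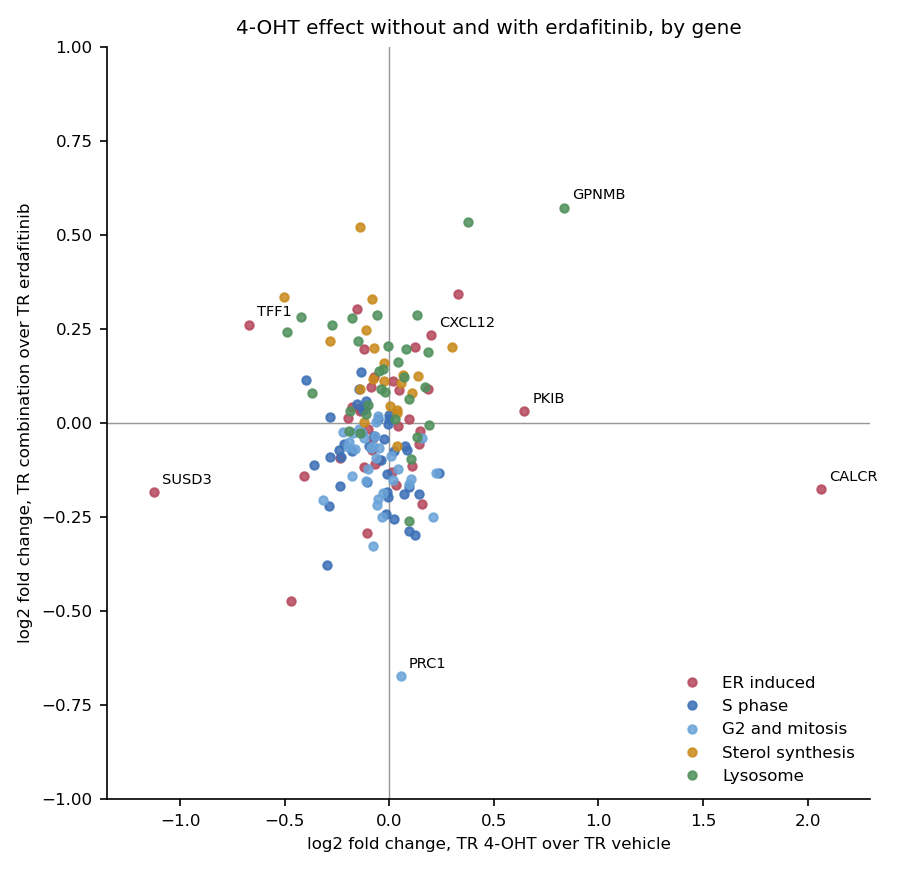
Log2 fold change of 4-OHT without erdafitinib (horizontal axis) and with it (vertical axis) for the drawn members of the 5 lists, without EGR3, coloured by list; the contrasts share no library. Most genes cluster around 0 on both axes, GPNMB is positive on both (0.83 and 0.57) and CALCR on the horizontal axis only (2.06 and -0.18).

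The axis is built from the same spread within groups that sets the width of an interval, so a steep slope brings a wide interval by construction. CXCL12 (slope -0.05, width 0.51) and FDFT1 (slope 0.19, width 0.57) had slopes near 0. TFF1 (slope 4.58, width 4.31), CYP51A1 (4.53, 4.15), GAA (3.94, 3.83) and MVD (3.68, 3.44) had the steepest slopes and were lowest in TR vehicle 1 of the vehicle group. With the axis as a covariate, which narrows intervals by construction because it takes its spread out, the median width over all genes was 0.85, against 1.35 without it. The counts under this setting are no independent limits: within 2-fold were then 28 of 37 oestrogen-induced, 40 of 40 S phase, 33 of 33 G2 and mitosis, 21 of 22 sterol synthesis and 29 of 31 lysosomal genes, and 0 genes were called. What the axis stands for was not tested.

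**Figure D4:**
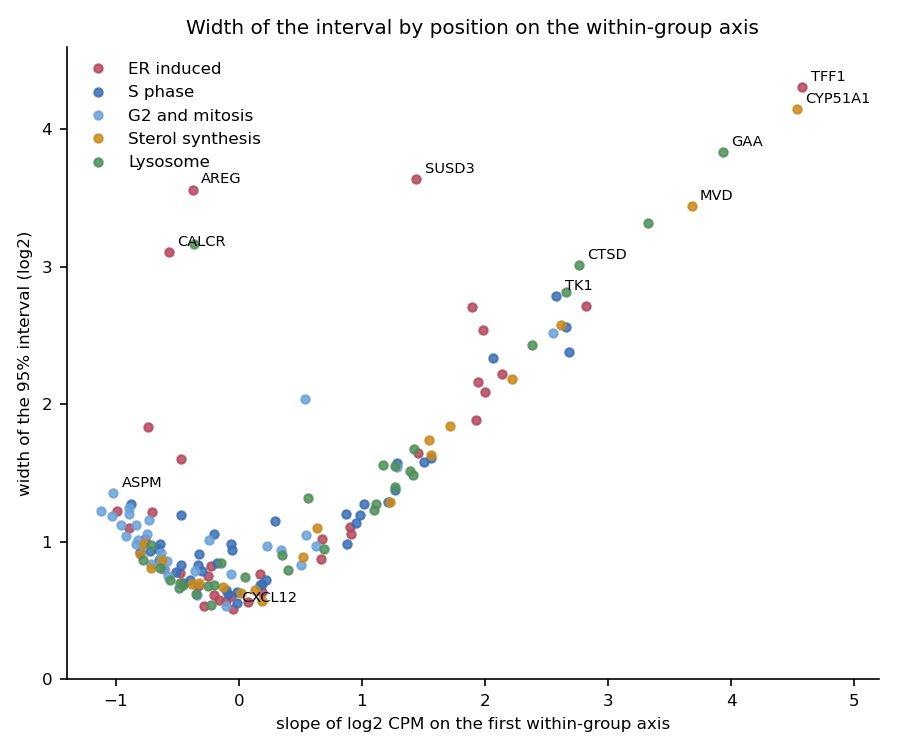
Width of the 95% interval of TR 4-OHT over TR vehicle in log2 units (vertical axis) against the slope of a gene's log2 CPM on the first within-group axis (horizontal axis), for the drawn members of the 5 lists, without EGR3. By construction widths grow with the slope in either direction, from 0.51 for CXCL12 to 4.31 for TFF1; AREG, SUSD3, CALCR and CTSS lie above the trend.

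The lists are set beside parental cells here. On the mean log2 CPM of its tested members, the oestrogen-induced list stood at 4.32, 4.26 and 4.23 in TR 4-OHT, 4.04, 4.40 and 4.34 in TR vehicle, and 5.93, 5.76 and 6.15 in PAR vehicle. The S phase list averaged 4.79 in TR 4-OHT, 4.84 in TR vehicle and 3.67 in PAR vehicle, and the sterol synthesis list 6.22, 6.20 and 5.01. The lysosome list averaged 5.82, 5.78 and 5.73. Over all tested genes, TR vehicle against PAR vehicle called 3220 higher (19.9%) and 2598 lower (16%). Among these were 23 of 37 oestrogen-induced genes lower and 2 higher, 29 of 40 S phase and 13 of 22 sterol synthesis genes higher, and 4 lysosomal genes higher and 3 lower. That contrast shares its TR vehicle libraries with TR 4-OHT over TR vehicle, and parental cells also differed in their growth medium.

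**Figure D5:**
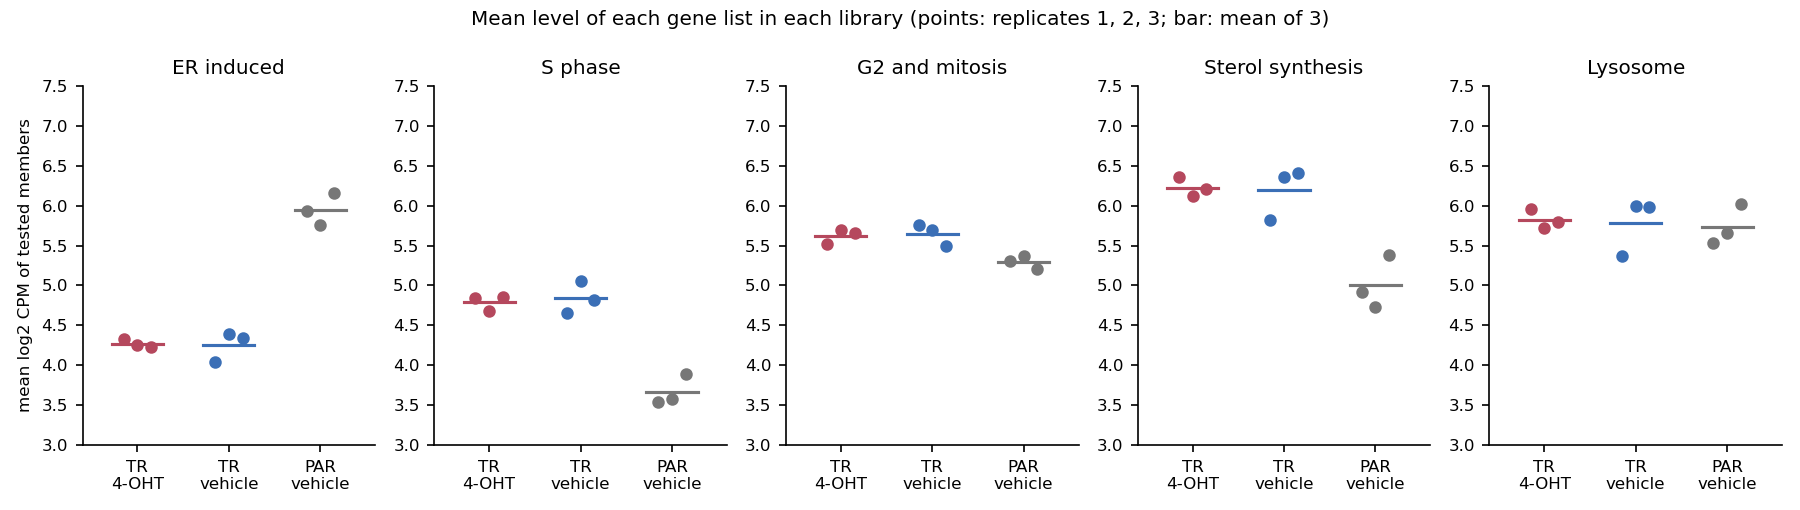
Mean log2 CPM of the tested members of each list (vertical axis) in each library of TR 4-OHT, TR vehicle and PAR vehicle, with the mean of 3 as a bar. TR 4-OHT and TR vehicle points overlap in all 5 panels, while PAR vehicle points lie above both for oestrogen-induced genes and below both for S phase, G2 and mitosis and sterol synthesis genes.

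Other genes that could respond to the drug or mark the resistant state also had 0 called. Among genes of drug handling, 7 of 19 were tested and 5 lay within 2-fold. CYP1B1, a target of the aryl hydrocarbon receptor, had 265, 238 and 279 CPM in TR 4-OHT, against 339, 211 and 224 CPM in TR vehicle, with rises over 1.33-fold excluded. NQO1, a quinone reductase, had the narrowest interval (rises over 1.14-fold excluded), UGT2B15 the widest and ABCC2 the smallest p (unadjusted p = 0.33), and CYP1A1 was too low to test. Of the FGFR and mesenchymal genes, 8 of 16 tested lay within 2-fold. FGFR1 could have changed by at most 1.47-fold in either direction, VIM had 0 to 1.86 CPM in TR 4-OHT and 0.774 to 1.68 CPM in TR vehicle, and SNAI1 had the widest interval. CDH1, the epithelial cadherin, did not overlap and had the narrowest interval, with a log2 fold change of 0.22 (-0.07 to 0.50, unadjusted p = 0.126). TWIST1, a mesenchymal factor, did not overlap in the other direction, at 0.344, 0.234 and 0.279 CPM in TR 4-OHT, against 0.516, 0.599 and 0.445 CPM in TR vehicle (unadjusted p = 0.0748). Both adjusted p were 1. Of 9 luminal markers 7 lay within 2-fold, and of the 2 tested markers of other cell types, COL1A1 and ADIPOQ, 0 did.

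Outside the lists, the 4 genes that followed GPNMB by p were AZGP1, ZNFX1, RALGAPA2 and FAM200C, each with an adjusted p of 1. AZGP1, a secreted glycoprotein, had a log2 fold change of 0.75 (0.33 to 1.18, unadjusted p = 0.00177), and 0.21 in TR combination over TR erdafitinib. ZNFX1 had 0.42 and 0.23 on the same scale, RALGAPA2 0.47 and 0.05, and FAM200C -0.76 and 0.14. The libraries of TR 4-OHT and TR vehicle did not overlap for any of the 4.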

How the data were processed

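Per the labels' protocols, total RNA was made into stranded paired-end libraries. The submitters' processing notes name HISAT2 2.1.0 and the build GRCh38 for the alignment. The authors deposited raw counts for 60664 Ensembl 104 gene IDs, from featureCounts 2.0.1 in reverse-stranded mode per the file headers, although the processing notes list version 1.4.6-p1. Read trimming is not given in the sources used here.

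Tests used edgeR 4.0.16 (R 4.3.3). The filter filterByExpr, told of all 5 groups, passed 16210 genes and dropped 44454. TMM factors ran between 0.907 and 1.10. A single quasi-likelihood model with 1 mean for each group covered the 15 libraries (10 residual degrees of freedom, common dispersion 0.095), and a gene was called at an adjusted p under 0.05. The 95% intervals were found by inverting the F test. They were tried on simulated counts drawn independently for each library, without the within-group axis. That trial cannot show how well the intervals cover in these libraries. CPM uses TMM-scaled totals. DESeq2 1.42.0 was an alternative, beside other size factors, other count filters, fewer groups in the fit, robust estimation, thinned counts, a replicate block, the within-group axis as covariate (first principal component of log2 CPM residuals, prior count 2), 99% intervals and leaving out each library.

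The members and the lists (oestrogen-induced, oestrogen-repressed, receptor partners, S phase, G2 and mitosis, G1, sterol synthesis, sterol control, fatty acid, lysosome, lysosome control, drug handling, FGFR and mesenchymal, luminal, other cell types) were chosen with earlier results of these data known. Genes named were listed key members, the narrowest, widest and smallest-p member of each list, and the 5 protein-coding genes of smallest p averaging 2 or more on the log2 CPM scale; CA12, FASN and the other members whose values are given were chosen after their values were seen. Some members are counted in their lists but not reported here by name.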

Additional observations from a re-analysis of the deposited data

How the results depend on the processing

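TR 4-OHT over TR vehicle gave 0 called genes under each of the 16 alternatives run, with 23 (only these 2 groups fitted) to 466 (within-group axis as covariate) at an unadjusted p under 0.05. Members within 2-fold numbered 20 to 28 oestrogen-induced, 28 to 40 S phase, 29 to 33 G2 and mitosis, 15 to 21 sterol synthesis and 17 to 29 lysosomal genes over these alternatives and 99% intervals; leaving out 1 library gave 21 to 23, 30 to 36, 30 to 31, 15 to 16 and 18 to 21. TR combination over TR erdafitinib went to 17 called genes with the axis as covariate, against 0 otherwise; the axis comes from these libraries' own residuals, and the cause was not tested. Same-numbered libraries of TR 4-OHT and TR vehicle had residual correlations of -0.51, -0.14 and -0.20, and TR 4-OHT 1 with TR vehicle 3 had 0.50. The within-group axis holds 49.5% of the variance of these residuals, so the correlations cannot tell whether a number marks a shared culture. With the replicate block 0 genes were called, and 22, 34, 31, 16 and 21 members of the 5 lists lay within 2-fold. The median of G2 and mitosis was 0.09 without TR vehicle 1 and -0.19 without TR vehicle 3, against -0.07. With counts thinned to the lowest total, log2 fold changes turned to -0.31 for RRAGD (from 0.11) and -0.12 for BTG2 (from 0.11), and were -0.13 for TWIST1 (from -0.80), -0.39 for FAM200C (from -0.76), -0.28 for INSIG1 (from -0.15), -0.39 for CDKN1B (from -0.16) and 1.13 for AZGP1 (from 0.75). SNAI1 was -1.14 without TR 4-OHT 3 (from -0.36), and UGT2B15 0.53 without TR vehicle 2 (from -0.28). Depth limits genes near 3 counts, and TR 4-OHT 2 is the shallowest of the 6 libraries compared. INSIG1 and CDKN1B were well above that level. The thinning was a single random draw, and the cause of these shifts was not tested.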
